A study of Mus musculus with 6 samples.

Results

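The genes described are 6 keratins of stratified and basal epithelium, Krt5, Krt14, Krt15, Krt17, Krt6a and Krt13, chosen by name and found in every count table. They are 6 of the 24077 genes of the single-cell table and 6 of the 30828 genes of each spatial table. Uteri came from 12-month-old CD-1 mice that had received corn oil (CO) or diethylstilbestrol (DES, a synthetic estrogen) at 1 mg/kg/day by injection on neonatal days 1 to 5. Dissociated cells were pooled from 2 CO mice into 1 library and from 4 DES mice into another, and were compared together with 4 frozen longitudinal sections measured by spatial transcriptomics, CO A, CO B, DES A and DES B, from 1 mouse each. Pooling leaves a single library per condition for dissociated cells, so CO and DES cells were compared by value with no test, and only the sections gave a test.

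Keratins are the intermediate filament proteins of epithelia, and a filament is built from a type I and a type II keratin. Krt8 and Krt18 form the pair typical of simple epithelium such as the normal uterine lining, whereas type II Krt5 and type I Krt14 form the pair of the basal layer of stratified epithelium. Krt15 is a type I keratin of basal cells, Krt17 (type I) and Krt6a (type II) are known for wounded, stressed or hyperproliferative epithelium and for ducts and skin appendages, and Krt13 is a type I keratin of the upper layers of stratified epithelium that does not cornify. The mature uterus is normally lined by a simple columnar epithelium without such layers.

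On GRCm38 (mm10), the 2 type II genes lie on the minus strand of chromosome 15, Krt6a at chr15:101689910-101694307 and Krt5 at chr15:101707070-101712898. The 4 type I genes lie on the minus strand of chromosome 11, Krt13 at chr11:100117327-100121566, Krt15 at chr11:100131758-100135928, Krt14 at chr11:100203162-100207548 and Krt17 at chr11:100256217-100261029. Counting was from the 3′ end of transcripts, and none of the 411 windows of 90 bases in the last 500 bases of any of the 6 genes was shared with another annotated gene. The sequences just upstream of Krt5 and Krt13 are shown because these genes mark the basal and upper layers and behaved differently in single cells. Each is the 250 bases before the RefSeq transcript start on GRCm38.p6, 5′ to 3′ on the gene's strand (chr15:101712906-101713155 and chr11:100121567-100121816), with any match to AP-1 in capitals.
Krt5: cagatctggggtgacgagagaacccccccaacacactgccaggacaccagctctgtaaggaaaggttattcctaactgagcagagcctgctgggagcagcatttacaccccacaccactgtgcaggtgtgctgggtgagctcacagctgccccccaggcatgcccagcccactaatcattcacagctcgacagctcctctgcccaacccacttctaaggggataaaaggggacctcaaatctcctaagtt
Krt13: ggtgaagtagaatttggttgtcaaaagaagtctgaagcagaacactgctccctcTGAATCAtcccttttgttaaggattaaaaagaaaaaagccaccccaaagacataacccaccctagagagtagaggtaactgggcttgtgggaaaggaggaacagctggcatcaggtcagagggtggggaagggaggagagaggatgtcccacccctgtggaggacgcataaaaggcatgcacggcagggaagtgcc
Both strands were searched for AP-1, spelled TGANTCA, and for AP-2, spelled GCCNNNGGC, with overlapping matches allowed. They were also searched for the Sp/KLF box, spelled GGGCGG, for a TATA box, spelled TATAAA, and for a p53-family core motif. The Krt13 window held 1 match, the AP-1 letters TGAATCA starting 196 bases before the start, and the Krt5 window held no match to the 5 motifs. Among 32851 RefSeq promoter windows, 6.75% held AP-1, 13.7% AP-2, 32.7% Sp/KLF, 12.4% TATAAA and 0.49% the p53-family core. Of the 6 genes, 3 had an entry in the promoter table. The Krt14 entry and a second Krt13 entry began inside the gene (989 bases inside for Krt13, with 2 AP-1 matches, 183 and 34 bases before that start), so neither is shown.

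The single-cell table held 32387 CO cells (median 6779 unique molecular identifiers, UMIs, per cell) and 16312 DES cells (median 10153.5), and 180 cell barcodes occurred in both libraries. Sections held 1357 to 1834 spots and 9117099 to 12506177 UMIs. Levels are CPM, a gene's UMIs divided by all UMIs of the sample or cell group and scaled to 1000000, with no scaling to gene length and with exact Poisson 95% intervals that cover counting error only. All 9 epithelial markers were detected in the cells annotated Epithelial, at a summed 4009 CPM in CO and 3304 CPM in DES. Cells annotated Mesothelial, set beside the epithelial cells below, carried mesothelial markers at 2343 and 2485 CPM and also stromal markers at 21716 and 22236 CPM.

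CO B stood apart from CO A before any comparison with DES. Its spot cluster 10, formed by the authors from 17 of 1834 spots, held 68.3% of the section's Krt5 UMIs, 68.3% of Krt14, 49.4% of Krt15, 93.5% of Krt6a and 87% of Krt13, but 9.47% of Krt17 (9 UMIs). In these 17 spots Krt5 was at 3580 CPM, Krt14 at 2288, Krt15 at 1566, Krt6a at 737, Krt13 at 2832 and Krt17 at 45.8. The other 9 clusters of CO B held at most 55.3 CPM of Krt5, and no cluster of CO A exceeded 2.77 CPM. Besides keratins, the cluster was led by Lgals7, Sprr1a and Ly6d, genes of stratified epithelium, and its Trp63 level was 158 CPM. Of its 17 spot positions, 1 was also a tissue position in DES A and 0 in DES B or CO A. The paper reports a substantial fold in the CO B tissue and limited cluster identification in DES B. For most of its analyses it used 1 section per group, CO A and DES A. The origin of this patch and the part of the fold were not tested, and results are given with and without the patch.

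All 6 keratins were higher in both DES sections than in both CO sections, as were 43.8% of the 14098 genes tested below. In the CO sections Krt5 was at 0.80 (A; 95% interval 0.383 to 1.47) and 93.4 CPM (B), and in the DES sections at 5276 (A) and 3562 CPM (B). Krt14 was at 1.68, 59.7, 4175 and 2019 CPM in the same order. For the basal pair the groups lay far apart, and the CO sections also lay far apart from each other.

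Krt15 was at 0.72 and 56.6 CPM in CO A and CO B and at 804 and 842 CPM in DES A and DES B. Krt13 was at 2.56, 58.0, 455 and 402 CPM in that order. Krt6a was at 0.16 (2 UMIs), 14.05, 547 and 221 CPM. For these genes too the lowest DES section lay well above CO B, and CO B lay well above CO A.

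Krt17 was the exception in its replicate spread, at 7.76 and 8.61 CPM in the CO and 86.3 and 83.5 CPM in the DES sections. The counting intervals of Krt17 overlapped within each group, and the groups did not overlap. Without cluster 10, CO B held 30.2 CPM of Krt5, 19.3 of Krt14, 29.2 of Krt15, 7.94 of Krt17, 0.923 of Krt6a and 7.66 of Krt13. Removing 17 spots thus brought Krt6a and Krt13 in CO B much nearer to CO A and left Krt17 almost as it was.

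**Figure D1:**
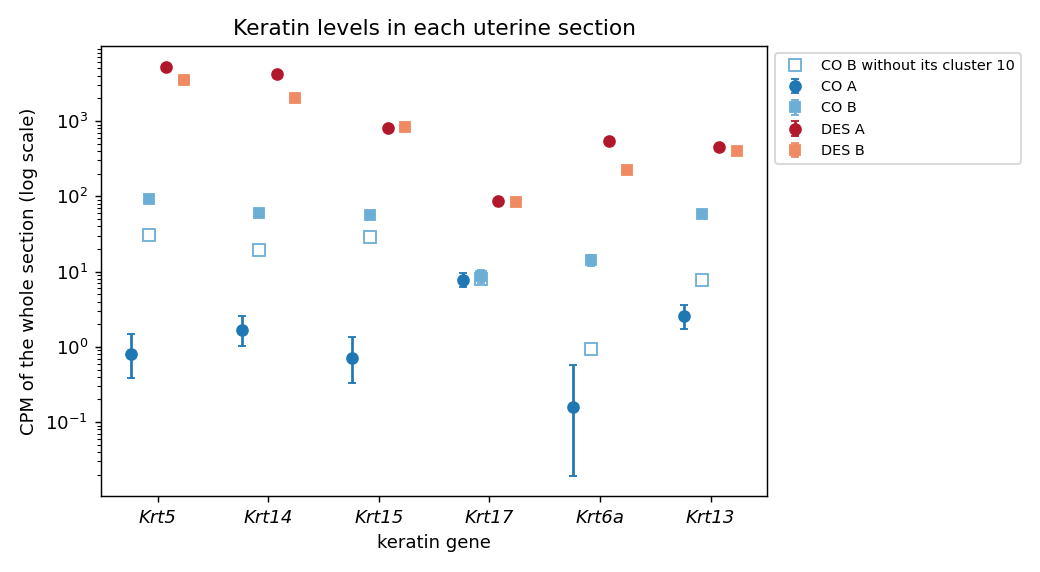
CPM of each keratin over the whole section (vertical axis, log scale) for CO A, CO B, DES A and DES B, with exact Poisson 95% intervals; open squares are CO B without its 17 spots of cluster 10. Both DES sections lie above both CO sections for every gene, and the CO sections coincide only for Krt17 (7.76 and 8.61 CPM).

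Detection across the tissue set the DES sections above the CO sections as well. Krt5 had a UMI in 10 of 1433 spots of CO A and 155 of 1834 spots of CO B, but in 1380 of 1575 spots of DES A and 1206 of 1357 spots of DES B. Krt6a had a UMI in 2, 23, 636 and 355 spots, and Krt13 in 29, 62, 737 and 630. A spot covers several cells, and in summed tissue fewer cells of a type cannot be told apart from less RNA per cell.

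Sections were compared with edgeR's quasi-likelihood test on summed UMIs, with Benjamini-Hochberg (BH) adjustment over 14098 genes, where a gene is called when its adjusted p is under 0.05. The paper chose 2 mice per group for sectioning, so the section is the replicate. Of the 6 keratins, 1 was called higher in DES, against 2.67% of all genes tested, and none was called lower, against 2.63%. Scaled by library totals alone, calls over all genes divided into 522 higher and 263 lower in place of 376 and 371, with 1 keratin called. Krt17 rose by 3.17 on the log2 scale (SE 0.17, edgeR adjusted p = 0.0141, 2 sections per group). All 6 keratins had both DES sections above both CO sections, which 43.8% of all genes tested had, while 17.9% had both below. All 6 also had an unadjusted p under 0.05 in the upward direction, against 11.6% of all genes tested, and this is not a call.

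The larger fold changes of the other keratins came with larger errors and did not pass. For Krt14 the log2 value was 6.46 (SE 1.70, edgeR adjusted p = 0.104), and for Krt5 it was 6.36 (SE 1.99, edgeR adjusted p = 0.142). Krt6a was at 5.57 (edgeR adjusted p = 0.116), Krt15 at 4.66 (0.181) and Krt13 at 3.64 (0.181). These 5 values ranked between place 37 and place 206 of the 14098 fold changes, and Krt17's ranked at place 269.

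Calls depended on which sections entered. With CO B left out, all 6 were called, against 7.91% of all genes tested in that fit called higher, and the log2 fold changes ran from 3.22 for Krt17 to 12.17 for Krt5. With CO A left out all 6 were again called, at 2.70 for Krt13 to 5.50 for Krt14, against 9.02% of all genes. With DES A or DES B left out edgeR called none (6 of 6 at an unadjusted p under 0.05 each time, as were 1722 of 14657 and 1712 of 14708 genes in either direction), and Krt17 had an adjusted p of 0.0515 and 0.0604. DESeq2 on all sections called 3, Krt5, Krt14 and Krt17, and called 5.83% of all genes higher. With cluster 10 removed from CO B, an alternative chosen after seeing the data, 4 were called, against 3.04% of all genes. They were Krt14 (8.01, edgeR adjusted p = 0.0395), Krt6a (9.28, 0.018), Krt13 (6.20, 0.018) and Krt17 (3.23, 0.00903). Keratins of the 6 led the removed spots, and nothing was removed from DES. A lower CO level was thus built into this alternative, and its calls are not added support.

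DES and CO sections also differed in the tissue they held. Summed epithelial markers were at 2730 and 2108 CPM in CO A and CO B and at 3558 and 3864 in DES A and DES B, while muscle markers were at 13345 and 14168 against 3077 and 3458. Myeloid markers were at 199 and 453 CPM against 1685 and 873. No marker of these lists was at 0 in any section, and the part of tissue composition in the whole-section values was not tested. The comparison was repeated in the 20% of spots of each section (271 to 367 spots) with the highest share of UMIs from the 9 epithelial markers, none of them a keratin.

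In epithelium-rich spots, 2 of the 6 keratins were called higher, against 3.91% of 11793 genes tested, and none lower, against 2.3%. Library totals alone gave 888 higher and 199 lower over all genes in place of 461 and 271, with 3 keratins called. Krt17 was at 0.24 and 2.11 CPM in the CO and 69.4 and 89.8 CPM in the DES sections, a rise of 5.78 on the log2 scale (SE 0.62, edgeR adjusted p = 0.0176). These CO values of Krt17 rested on very few UMIs, counted below. Krt6a was at 0.49, 14.5, 649 and 411 CPM, a rise of 5.86 (SE 1.13, edgeR adjusted p = 0.0487). Its CO A level rested on the 2 Krt6a UMIs of that section. For both genes the DES sections lay above the CO sections without overlap, as they did for 47.3% of genes tested. Neither was called by edgeR with DES A or DES B left out (adjusted p 0.0892 to 0.227, with 5 of 6 keratins at an unadjusted p under 0.05, as were 1352 of 12494 and 1399 of 12533 genes), and Krt6a was not called with the top 30% of spots (0.0775).

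Krt14 was at 2.91 and 59.9 CPM in the CO and 4149 and 2033 CPM in the DES epithelium-rich spots (log2 fold change 6.33, SE 1.38, edgeR adjusted p = 0.0617). Krt5 was at 1.21, 108, 5872 and 3979 CPM (6.21, edgeR adjusted p = 0.101). Krt13 was at 3.16, 49.9, 611 and 618 CPM (4.25, 0.0887) and Krt15 at 0.97, 78.7, 735 and 793 CPM (3.98, 0.175). All 6 keratins again had both DES sections above both CO sections, as did 47.3% of genes tested (14.1% had both below), and all 6 had an unadjusted p under 0.05 upward, as did 13.6%. Without cluster 10 of CO B, 4 of the 6 were called in these spots, against 4.01% of all genes. Krt6a was at 9.31 (edgeR adjusted p = 0.00552), Krt17 at 6.12 (0.0135), Krt13 at 5.93 (0.0175) and Krt14 at 7.25 (0.0338). As in whole sections, this removal lowered CO by construction, so these calls are not added support. With either CO section left out, all 6 were called, when 13.7% (without CO A) and 12.6% (without CO B) of all genes were called higher.

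**Figure D2:**
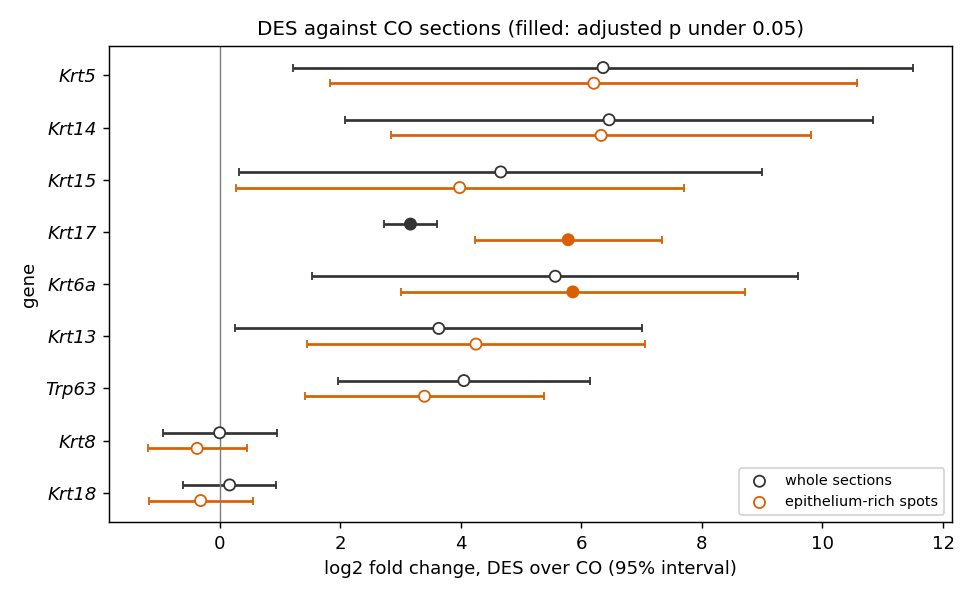
Log2 fold change of DES over CO sections (horizontal axis, edgeR, 95% interval) for the 6 keratins, Trp63 and the simple pair Krt8 and Krt18, in whole sections and in epithelium-rich spots; filled points have an adjusted p under 0.05. Krt17 is filled in both and Krt6a in epithelium-rich spots, and the whole-section interval of Krt17 is the narrowest.

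Krt8 and Krt18, the pair of simple epithelium, were not called in either comparison. Krt8 was at 948 and 500 CPM in the CO sections and 756 and 924 CPM in the DES sections, with a log2 fold change of 0.00 (95% interval −0.95 to 0.95). Krt18 was at 350, 591, 552 and 661 CPM, with 0.17 (−0.60 to 0.93). The groups overlapped for both, and the intervals leave room for changes of nearly 1 on the log2 scale. In whole sections, 0 of the 5 simple keratins tested were called by edgeR (1 at an unadjusted p under 0.05 and 1 by DESeq2, Krt23 in both cases), and their median log2 fold change was 0.30 against −0.01 over all genes. Krt23 was the largest at 2.66 (edgeR adjusted p = 0.11) and was called in epithelium-rich spots.

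Of 14 other stratified keratins listed, 8 had enough counts to be tested. Krt1, Krt6b, Krt78 and Krt80 were called higher (4 of 8) and none lower, against 2.67% and 2.63% of all genes. The list median was 3.08. A gene nearly absent from CO enters the test through its DES counts and can then only be called higher. The counts of rises and falls in this and the following lists are thus descriptions and not added support. Krt78, a type II keratin of stratified epithelium, was at 0 and 0.18 CPM in the CO sections and 7.90 and 9.72 in the DES sections, a ratio of 104 with a counting interval of 28.4 to 867, since CO held 2 UMIs in all (edgeR adjusted p = 0.0276). Krt16, the usual partner of Krt6a, was at 0 and 0.91 against 8.12 and 7.59 CPM, which did not pass (edgeR adjusted p = 0.108). Krt10, the type I keratin of the cornifying upper layers, had the smallest value of the list, −0.09 (edgeR adjusted p = 0.824; 0.12 with library totals alone).

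Trp63, the transcription factor that sets up basal epithelium, was at 0.88 and 6.53 CPM in the CO and 75.7 and 63.6 CPM in the DES sections. Its log2 fold change of 4.05 had an edgeR adjusted p of 0.0617 (0.0259 without cluster 10 of CO B). That removal took out 43.1% of the Trp63 UMIs of CO B, so the lower value is not added support. Among 14 basal and squamous regulators tested, 5 rose (all genes 2.67%) and none fell (2.63%), with a median of 2.61. Tfap2a, an AP-2 factor of surface epithelium, was at 0 and 0.27 CPM against 15.8 and 9.92 CPM (edgeR adjusted p = 0.0289). Grhl3, a regulator of epithelial barrier genes, was at 1.44 and 0.91 against 33.1 and 44.2 CPM (log2 fold change 4.81, SE 0.36, edgeR adjusted p = 0.0182), and Grhl1, Tfap2c and Runx1 were the others that rose. Ovol1 had the smallest value, −0.48 (edgeR adjusted p = 0.452).

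Hemidesmosomes and desmosomes anchor keratin filaments to the basement membrane and to neighbouring cells. Of 9 hemidesmosome and basement membrane genes, 3 rose (Itgb4, Plec and Lamb3; all genes 2.67%) and none fell (2.63%), with a median of 0.40. Col17a1, the hemidesmosomal collagen, was at 0.56 and 9.61 against 243 and 176 CPM (5.18, edgeR adjusted p = 0.0724), and Itgb4, its integrin partner, was at 65.1 and 51.1 against 216 and 199 CPM (1.62, SE 0.20, edgeR adjusted p = 0.0276). The level of Col17a1 in CO B again lay between that of CO A and those of the DES sections.

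Of 10 desmosome genes, 2 rose (Dsg3 and Perp; all genes 2.67%) and none fell (2.63%) in whole sections, with a median of 1.28. Dsg3, the desmosomal cadherin of basal stratified epithelium, had no UMI in either CO section and was at 6.58 and 4.35 CPM in the DES sections, at least 42.5-fold higher against a floor of 3 UMIs over the CO group (edgeR adjusted p = 0.0293). Pkp1, a desmosomal plaque protein of stratified epithelium, was at 0.16 and 4.71 against 106 and 61.3 CPM (4.92, edgeR adjusted p = 0.0741). Pkp2, the plaque protein of simple epithelium and heart, was at 42.9 and 28.8 against 14.9 and 16.8 CPM (−1.39, edgeR adjusted p = 0.0599), and was called lower in epithelium-rich spots (−1.34, edgeR adjusted p = 0.0414, but 0.0558 with library totals alone).

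Of 12 genes of the cornified envelope, 2 rose (Evpl and Sprr1a; all genes 2.67%) and none fell (2.63%), with a median of 2.21. Cnfn was at 0 and 0.09 against 5.92 and 1.62 CPM, a ratio of 86.7 with a counting interval of 15.1 to 3474 that rests on 1 CO UMI (edgeR adjusted p = 0.0652). Csta1 was at 0 and 0.73 against 8.34 and 7.09 CPM (edgeR adjusted p = 0.0882). Lor, the main protein of the cornified envelope of skin, had the smallest value, −1.10 (edgeR adjusted p = 0.289). In epithelium-rich spots, 5 of 9 tested genes of this list rose, and the counts higher were 2 of 7 for other stratified keratins, 3 of 9 for hemidesmosome genes, 3 of 10 for desmosome genes, 4 of 14 for regulators and 1 of 5 for simple keratins, beside 3.91% of all genes. The only call lower in these lists there was Pkp2, 1 of the 10 desmosome genes, beside 2.3% of all genes. Few calls over all genes were made with a DES section left out, when edgeR called 14 without DES A and 3 without DES B in whole sections and 0 in either case in epithelium-rich spots (1352 and 1399 at an unadjusted p under 0.05).

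The spot clusters of the DES sections, which the authors formed on the same counts and which are therefore described without a test, placed the keratins in overlapping but not identical areas. In DES A, Krt5 was highest in clusters 1 (7879 CPM, 332 spots), 5 (7153) and 8 (4305), and Krt14 was highest in the same clusters at 7030, 5437 and 4617 CPM. In DES B, clusters 1, 7 and 4 held 5298, 5193 and 4996 CPM of Krt5. Every cluster of DES A held at least 204 CPM of Krt5 and every cluster of DES B at least 464, including those with the most muscle markers. The lowest DES A value was that of cluster 10, which had 2 spots and was rich in epithelial, not muscle, markers. Whether RNA spread between spots was not tested.

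Krt6a took a larger share in a few clusters than the basal pair did. In DES A, clusters 1, 5 and 8 held 38.2% of the spots, with 92.6% of the Krt6a UMIs, 86.5% of Krt13, 80.5% of Krt14 and 71.2% of Krt5. Depth per spot differed between clusters. Clusters 1, 5 and 8 of DES A and 1, 4 and 7 of DES B held a larger share of all UMIs than of spots. In DES B, clusters 1, 4 and 7 held 36.8% of the spots, with 90.5% of the Krt6a UMIs, 73.2% of Krt14 and 65.5% of Krt5, and the 3 highest clusters for Krt13 (7, 4 and 6) held 53.6% of its UMIs in 26.6% of the spots. In DES B, cluster 7 alone (106 of 1357 spots) held 69.5% of the Krt6a UMIs and 49.4% of those of Krt13, but 21.9% of those of Krt5. That cluster was led by Tff1, a secreted trefoil peptide of mucous epithelium, and Krt6a itself, and its levels were 1026 CPM of Krt6a and 1322 of Krt13. Cluster 1 of DES A, also led by Tff1 and Krt6a, held 1037 CPM of Krt6a and 848 of Krt13.

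Clusters with little Krt6a relative to their Krt5 occurred in the same sections. In DES A, cluster 2 had 3755 CPM of Krt5 but 32.9 of Krt6a. In DES B, cluster 1 had the most Krt5, 5298 CPM, with 138 of Krt6a. That was place 3 of 10 clusters for Krt6a, above the median of 52.0 CPM and below the 1026 of cluster 7. DES B cluster 1 was led by Dapl1, Krt14, Bcam and Krt5 and held 102 CPM of Trp63. Cluster 8 of DES A (61 spots) had the highest Krt17 of that section, 182 CPM, with 1015 CPM of Krt6a, and its leading genes were S100a9, S100a8, Spp1 and Il1b of neutrophils and macrophages. The summed myeloid markers of this cluster were at 7502 CPM against 1015 in cluster 1, and their part in its keratin levels was not tested.

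**Figure D3:**
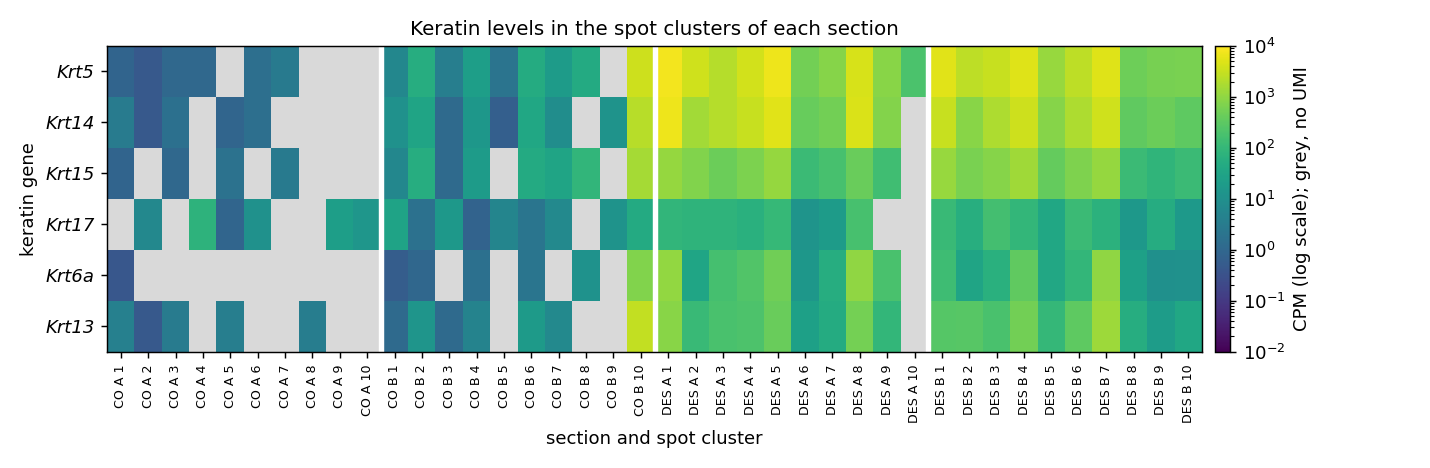
CPM (colour, log scale) of the 6 keratins in each of the 10 spot clusters of CO A, CO B, DES A and DES B; grey marks a cluster with no UMI. CO B cluster 10 (17 spots) has levels within the range of the DES clusters for Krt5, Krt14, Krt6a and Krt17 and above it for Krt15 and Krt13 (1566 and 2832 CPM), and among CO A clusters Krt17 is highest in cluster 4 (76.0 CPM).

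Most Krt17 UMIs in CO sections lay in muscle-rich spots, but not evenly over the muscle-rich clusters. In CO A, 70 of its 97 UMIs were in spot cluster 4, at 76.0 CPM, and cluster 9 followed at 23.5 CPM, whereas 1 UMI lay in epithelium-rich spots. Cluster 4 was led by Igfbp2, Acta1 and Tnni2 and held 46411 CPM of muscle markers against 488 of epithelial markers. Cluster 2 held a similar 44978 CPM of muscle markers but less Krt17 than the 14.3 CPM of cluster 10. In CO B, cluster 1, led by Tnni2, Igfbp2 and Myl4, held 32901 CPM of muscle markers and 51 of 95 Krt17 UMIs, at 29.99 CPM, and 8 of the 95 lay in epithelium-rich spots. Cluster 5 of CO B held the most muscle markers, 50766 CPM, but less Krt17 than the 15.8 CPM of cluster 3. The log2 fold change of Krt17 was 3.17 over whole sections and 5.78 in epithelium-rich spots, and the difference between these values was not tested.

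Within DES sections, spots that held Krt17, Krt6a or Krt13 nearly always held Krt5. In DES A, 99.2% of the 636 spots with Krt6a, 98.5% of the 737 with Krt13 and 99.3% of the 414 with Krt17 also had Krt5, which was itself present in most spots. Across the 1575 spots, Pearson correlations of log-scaled levels were 0.75 for Krt5 with Krt14, 0.62 for Krt6a with Krt13, 0.24 for Krt5 with Krt17 and 0.16 for Krt17 with Krt6a. In DES B (1357 spots) the same pairs gave 0.67, 0.59, 0.22 and 0.03. Spots of a section share depth and tissue layout, so these values are descriptions.

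In dissociated epithelial cells the basal keratins were again far higher in the DES library. Krt5 was at 0.305 CPM in 2583 CO cells (24 UMIs) and 178 CPM in 5255 DES cells, a ratio of 584 with a counting interval of 393 to 912. Krt14 was at 0.838 and 226 CPM (ratio 270) and Krt15 at 1.05 and 174 CPM (ratio 165). Krt17 was at 6.24 and 62.0 CPM, a ratio of 9.93 (9.07 to 10.9). With each cell weighted equally, DES levels were 282 CPM for Krt5, 424 for Krt14, 316 for Krt15 and 115 for Krt17, above the summed values by more than 1.5 times.

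Krt13 and Krt6a departed from this pattern. Krt13 was at 14.7 CPM in CO and 20.1 in DES epithelial cells, a ratio of 1.37 (1.28 to 1.46). Krt6a was at 0.66 CPM in CO (52 UMIs) and 0.352 in DES (62 UMIs), a ratio of 0.533 (0.363 to 0.786). With each cell weighted equally Krt6a was at 0.476 CPM in CO and 0.388 in DES, and without the deepest cells at 0.488 and 0.405, which brings the levels of the libraries closer together. Both levels of Krt6a were under 1 CPM, beside 547 and 221 CPM in the DES sections, and what set the cells and sections apart was not tested.

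Free RNA can place UMIs in any cell, so shares of cells were set beside those of cells annotated Mesothelial, after thinning each cell to 3000 UMIs. In DES, Krt5 was found in 21.4% of epithelial and 2.14% of mesothelial cells, Krt14 in 13.6% and 3.20%, Krt15 in 12.98% and 2.33%, Krt17 in 8.63% and 0.793%, and Krt13 in 5.88% and 0.132%. Thinned DES lymphocytes (213 cells) had Krt5 in 3.76%, Krt14 in 5.63% and Krt15 in 3.76%, above the mesothelial shares. Their shares of Krt17 (0.469%) and Krt13 (0 cells) were below the mesothelial ones. In CO, Krt13 was found in 3.20% of epithelial and 0.327% of mesothelial cells and Krt17 in 1.33% and 0.298%. The CO share of Krt14 was 0.39% in epithelial and 2.19% in mesothelial cells, and that of Krt15 was 0.312% and 0.566%. Mesothelial cells are not a clean background for Krt14 in CO, since CO stromal cells had Krt14 in 0.153% and Krt15 in 0.153%. Krt5 was in 2 of 2562 CO epithelial cells and Krt6a in 1. Krt6a was in 5 of 5201 DES epithelial cells and in 0 of 3782 DES mesothelial cells. Without thinning the order for Krt6a turned, with 1.28% of CO and 0.381% of DES epithelial cells.

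At least 1 of the 6 keratins was found in 28.4% of thinned DES epithelial cells (95% Clopper-Pearson interval 27.2 to 29.6%) against 8.22% of mesothelial cells, and in 5.27% of CO epithelial cells against 3.42%. Without thinning, at median depths of 21900 UMIs in DES and 23458 in CO epithelial cells, Krt5 was found in 40.2% and 0.852% and Krt13 in 29.1% and 23.7%. Mesothelial cells were shallower, with medians of 12329 in DES and 10436 in CO. The 180 shared barcodes took in 13 CO and 46 DES epithelial cells, and the 13 held none of the 24 Krt5 UMIs of CO epithelium.

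The pair Krt5 and Krt14 was found together in 607 of 5201 thinned DES epithelial cells (11.7%, 10.8 to 12.6%) and in 0 of 2562 thinned CO cells, which at this depth allows a share of cells with both UMIs of up to 0.144%. Without thinning the shares were 17.0% in DES and 0.0387% in CO. The pairing was unequal. Of DES cells with Krt14, 85.9% also had Krt5, but of cells with Krt5 54.6% also had Krt14. Krt14 and Krt15 went together more evenly, since 83.7% of cells with Krt14 had Krt15 and 87.7% of cells with Krt15 had Krt14.

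The cells that carried the basal keratins formed integrated epithelial clusters 8 (351 cells) and 11 (257 cells), all from the DES library. The clusters were formed by the authors on the same counts, so their levels are descriptions. Together the 608 cells were 11.6% of DES epithelial cells and held 96.2% of the Krt14 UMIs, 94.5% of Krt15, 93.3% of Krt17 and 85.5% of Krt6a, but 59.7% of Krt5 and 19.8% of Krt13. Cluster 8 had 1808 CPM of Krt5, 3858 of Krt14, 2882 of Krt15, 1102 of Krt17, 4.45 of Krt6a and 63.7 of Krt13. Cluster 11 had 1611, 3047, 2355, 681, 5.69 and 67.1 CPM in the same order.

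Both clusters carried Trp63, at 203 and 302 CPM, with UMIs in 90.3% and 93.0% of cells. Cluster 8 was led by the stress-response gene Atf3, with Krt14, Krt17, Ly6d, Krt15 and Icam1, and cluster 11 by Apoe, Trp63 and Col17a1 among other genes. Krt14 was detected in 99.1% of thinned cells of cluster 8 and 99.6% of cluster 11, and Krt17 in 70.9% and 61.2%. Krt8, the simple keratin, was still present in these cells at 279 and 288 CPM, below its 981 CPM in cluster 10. Krt6a was at 30 UMIs in cluster 8 (16 of them in 1 cell) and 23 in cluster 11 (11 in 1 cell).

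Cluster 10 (282 DES cells) carried Krt5 with little of its partner. Krt5 was at 626 CPM there and was found in 55.2% of thinned cells, whereas Krt14 was at 29.7 CPM and in 4.63%, Krt15 at 23.3 CPM (93 of its 228 UMIs in 1 cell) and Trp63 at 0.818 CPM (8 UMIs). Krt5 made up 82.0% of the UMIs of the 6 keratins in cluster 10, against 18.6% in cluster 8 and 20.7% in cluster 11. Krt13 was at 76.7 CPM, its highest level in any integrated cluster. The cluster was led by Tff1, Ccl6 and Olfm4, a secreted glycoprotein of crypt and gland epithelium, and 207 of its 281 cells with a DES-only cluster number (73.7%) belonged to DES-only cluster 5.

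The authors removed cells called basal by Krt14 and Trp63 before the DES-only clustering, so Krt14 levels in its clusters are not independent of that selection. Krt5 was at 645 CPM in DES cluster 5, 355 in cluster 12 and 330 in cluster 14, with Krt14 at 16.8, 5.30 and 64.8 CPM. One cell held 79 of the 149 Krt14 UMIs of cluster 5 and another 69 of the 157 of cluster 14, and the median cell of each held 0. The remaining 13 clusters held 5.51 to 85.7 CPM of Krt5. Integrated clusters 2 and 4 held 111 and 62.5 CPM of Krt5 with 4.87 and 10.3 CPM of Krt14. Outside clusters 8, 10 and 11, DES epithelial cells held 41.9 CPM of Krt5, 7.89 of Krt14 and 9.37 of Krt15, beside 6.49, 10.6 and 6.18 CPM in DES mesothelial cells and 23.5, 32.9 and 18.1 CPM in 239 DES lymphocytes. Krt13 was at 13.5 CPM in the same epithelial cells, beside 0.542 CPM in DES mesothelial cells and no UMI in the lymphocytes.

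**Figure D4:**
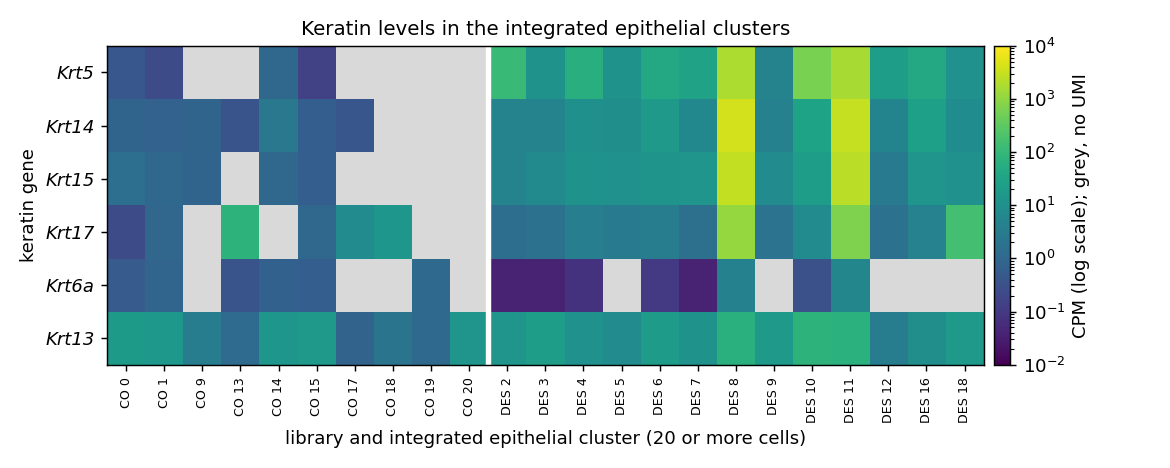
CPM (colour, log scale) of the 6 keratins in integrated epithelial clusters with at least 20 cells, CO on the left and DES on the right; grey marks a cluster with no UMI. DES clusters 8 and 11 are high for Krt5, Krt14, Krt15, Krt17 and Krt13, and DES cluster 10 for Krt5 and Krt13. Krt17 is also high in DES cluster 18 and CO cluster 13.

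CO epithelial cells held Krt17 and Krt13 in different clusters. Integrated cluster 13 (222 cells, all CO) held 416 of the 492 Krt17 UMIs, 84.6%, at 76.4 CPM, with UMIs in 25.2% of its cells and 0 UMIs of Krt5 or Krt15. In the CO-only clustering, Krt17 was at 73.5 CPM in cluster 3 (204 cells) and 77.1 in cluster 14 (28 cells), and at most 3.96 in the others. Cluster 3 was led by Abcb1b, Napsa and Olfm1 and also carried Klk1, a kallikrein of glands. Integrated cluster 18 held 165 CPM of Krt17 in its 43 DES cells and 14.2 CPM in its 24 CO cells (7 UMIs).

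Krt13 was the reverse. It was at 1.29 CPM in CO cells of integrated cluster 13 (7 UMIs) and at 18.8 and 15.5 CPM in clusters 0 and 1, the largest CO clusters. In the DES library it was spread widely, at 3.31 CPM in cluster 12 to 76.7 in cluster 10, and cluster 10 held 21.1% of its UMIs. Of DES cells with Krt13, 42.8% also had Krt5 and 28.4% also had Krt14.

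CO cells annotated Mesothelial held more Krt14 than CO epithelial cells. The level was 8.63 CPM (717 UMIs in 534 of 6866 cells, at most 13 in 1 cell) against 0.838 CPM, while Krt5 was at 0.181 CPM there. DES mesothelial cells held 10.6 CPM of Krt14 and 6.49 CPM of Krt5. CO stromal cells held 0.51 CPM of Krt14. The small CO group annotated Stmn1-hi (22 cells) held 33.1 CPM of Krt14.

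**Figure D5:**
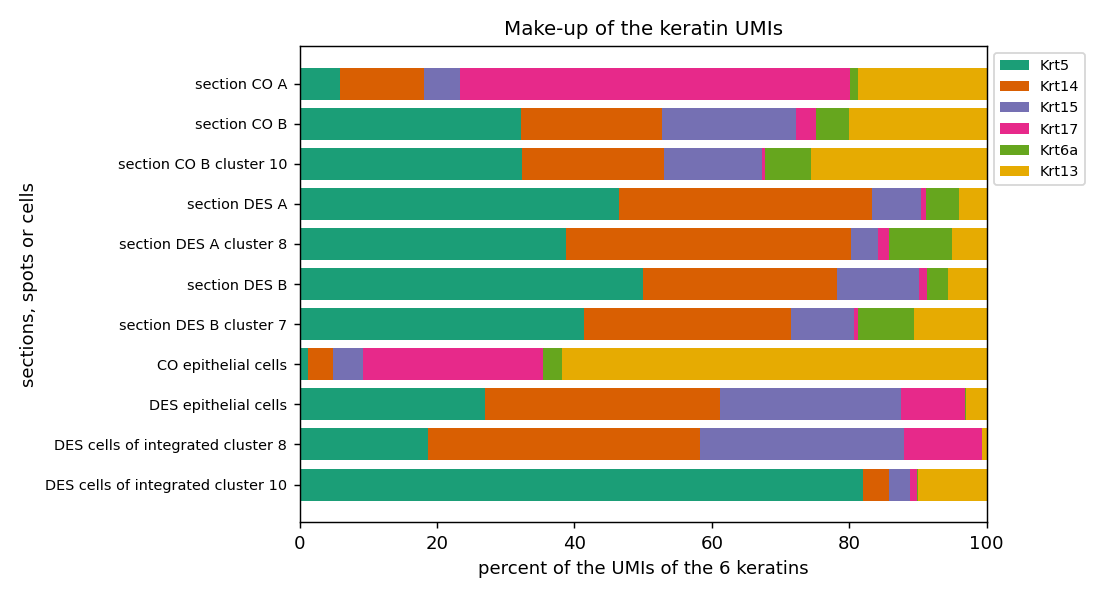
Share of each keratin among the UMIs of the 6 keratins (horizontal axis, percent) in sections, spot clusters, epithelial cells and integrated clusters. Krt6a takes 4.82% and 3.1% in DES A and DES B but 0.0533% in DES epithelial cells, where Krt15 and Krt17 take 26.3% and 9.38%.

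The make-up of the keratin UMIs differed between tissue and dissociated cells of DES uteri. Krt5 and Krt14 took 46.5% and 36.8% in DES A and 49.96% and 28.3% in DES B, and 26.9% and 34.2% in DES epithelial cells. Krt15 took 7.09% and 11.8% in the sections and 26.3% in the cells, and Krt17 0.761% and 1.17% against 9.38%. Per 100 UMIs of Krt5, there were 10.4 and 6.21 UMIs of Krt6a in the DES sections and 0.198 in the cells. The paper took the cells from uterine horns cut away from the uterine body. Section blocks were cored to areas of interest after a pathologist looked for luminal and glandular epithelium, and in DES for adenocarcinoma. Assay, dissociation, tissue region, choice of blocks and the mice sampled differed together between sections and cells and cannot be told apart.

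Genes whose levels followed each keratin most closely were sought among 10743 genes over 33 groups of cells, formed by library and annotated cell type with epithelial cells split by integrated cluster, on log2(CPM + 1). For Krt5 they included Olfm4 (Pearson r 0.93) and Faap100 (0.87). For Krt14 they were Fat2, Col17a1 and Trp63 (0.92, 0.92 and 0.91), and for Krt15 RP23-392F1.1, Col17a1 and Fat2 (0.94, 0.93 and 0.93). Among the 6 keratins, Krt14 and Krt15 were the closest pair (0.97). Krt5 had r of 0.91 to Krt15 and 0.88 to Krt14, beside 0.93 to Olfm4, the highest among all genes searched outside the 6.

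Krt17 was followed by Dsg3, Defb1 and Fat2 (0.89, 0.87 and 0.85), with r of 0.64 to Krt5. Krt13 was followed by Calml3, Crabp2 and Adam28 (0.86, 0.84 and 0.84). Krt6a never reached 20 CPM in these groups, and its nearest genes, Klhdc8a, Duoxa1 and Foxa1 (0.89, 0.88 and 0.88), rest on few UMIs. The groups share 2 libraries and most are epithelial clusters, so these correlations are descriptions.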

How the data were processed

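Single cells were counted by the authors as UMIs per gene with Cell Ranger 3.0.1 and spots with Space Ranger 1.2.2 on mm10, and the deposited counts are not normalized; per the submitters' notes bcl2fastq 2.20.0.422 made the reads. The authors removed doublets with scran and supplied cell types and clusters. Here UMIs were summed by cell group, spot cluster or section. Cell shares followed thinning to 3000 UMIs per cell (seed 7), which left out 21 CO and 54 DES epithelial cells. Sections were tested with edgeR 4.0.16 (TMM factors, filterByExpr, quasi-likelihood, BH at 0.05), 2 against 2, after tests on simulated data; DESeq2 1.42.0 was an alternative. Sections of a group came from separate mice. Epithelium-rich spots were the top 20% by epithelial markers. Python 3.11.15 and R 4.3.3 were used. The genes and lists were chosen with earlier results of these data known. From each list, the 2 largest and the smallest log2 fold change in whole sections were named, with Trp63, Krt8 and Krt18; other genes were named after their values were seen, and some results under this rule are not reported here. Intervals cover counting error only.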

Additional observations from a re-analysis of the deposited data

Results flagged for a closer look

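Cells to which the deposited metadata give no cell type entered no comparison above, yet in the DES library they carried all 6 keratins above the level of such cells in the CO library, which is why they are listed. In 6611 DES cells Krt5 was at 205 CPM against 0.077 in 20134 CO cells (13 UMIs). Krt14 was at 136 against 3.59 CPM, Krt15 at 141 against 1.10 and Krt17 at 51.3 against 2.88. Krt13 was at 16.3 against 5.63 CPM. Krt6a was at 1.35 CPM (57 UMIs) against 0.147 (25 UMIs), above its 0.352 CPM in annotated DES epithelial cells and still far below the 547 and 221 CPM of the DES sections. These DES cells also held 2064 CPM of summed epithelial markers, 4116 of stromal and 592 of myeloid markers, with no listed marker at 0. They were shallow, with a median of 2178 UMIs in DES and 4137.5 in CO against 21900 in annotated DES epithelial cells, and 2684 of the 6611 DES cells reached 3000 UMIs. With 1 library per condition the differences were not tested. Whether these cells passed the authors' quality control is not given here, and what they are was not tested.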

How the results depend on the processing

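In the section fits no keratin changed direction under any alternative: of 138 log2 fold changes, 96 kept their side of the threshold, 35 passed newly and 7 no longer passed. In whole sections 747 genes and 1 keratin were called; DESeq2 called 1791 genes and 3 keratins, leaving out a section gave 3 to 2819 genes and 0 to 6 keratins, and CO B without cluster 10 gave 4 keratins. In epithelium-rich spots 732 genes and 2 keratins were called; DESeq2 called 1181 and 5, leaving out a section gave 0 (edgeR, without DES A or DES B, 1352 and 1399 genes at an unadjusted p under 0.05) to 3242 genes and 0 to 6 keratins, and 4 keratins were called without cluster 10, with the top 10% of spots and with spots ranked by Krt7, Krt8, Krt18 and Krt19, but 1 with the top 30%. Over all genes, 374 of 10329 were called higher with the top 10% of spots and 397 of 12420 with the top 30%. With spots ranked by the simple keratins, 625 of 11707 were called higher. Removal of cluster 10 took spots led by the keratins from CO only, so its calls are not added support. A lone section left in a group was assumed to vary like the other group. Library totals alone moved the median log2 fold change of all genes to 0.20 and 0.29 and called 522 higher and 263 lower in whole sections, against 376 and 371. The labels give the letter B to 1 section of each group and no letter to the others; same-lettered sections did not deviate together (r −0.00567 over 13682 genes), and a replicate block by letter, added after seeing the data, called 527 and 773 genes and 1 and 4 keratins. The 6 keratins summed were at 661 CPM in DES epithelial cells, and 672 with a filter on cells, 808 with totals without the 20 most abundant genes, 1161 as a mean over cells and 770 without the deepest cells; CO was at 23.8, and 28.4 without the abundant genes. The share of DES epithelial cells with any keratin, 28.4%, was 33.4% at 5000 UMIs and 65.8% without thinning, and in CO 5.27% became 9.66% and 30.5%. Krt5 with Krt14 in DES, 11.7%, was 10.0% at 2 UMIs of each and 17.0% without thinning. The share of cells with Krt6a, 0.0961% in DES and 0.039% in CO, turned to 0.0975% and 0.396% at 5000 UMIs and to 0.381% and 1.28% without thinning. In CO A, the deepest section, Krt5 rested on 10 UMIs and Krt6a on 2, so folds against CO A carry wide counting error.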
